A study of Homo sapiens with 10 samples.

Results

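The histone cluster genes are the genes listed in the count files under a symbol that starts with HIST1H, HIST2H, HIST3H or HIST4H, which names the cluster and then the histone type. The rule took 73 of the 26485 listed genes: 6 for H1, 18 for H2A, 20 for H2B, 14 for H3 and 15 for H4. It used symbols and no measured value. By the RefSeq gene table for GRCh38.p14, 56 lie on chromosome 6 between 25726063 and 27893891, 13 named HIST2 and 3 named HIST3 lie on chromosome 1, and HIST4H4 lies on chromosome 12 at 14770720 to 14771131.

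Polyadenylated RNA was sequenced from SW480, an established line of human colorectal cancer epithelial cells that the labels give as wild type (WT). Flow sorting on ROBO1, a receptor of the cell surface, gave ROBO1pos cells (also called SW480-CBC) and ROBO1neg cells (SW480-RSC), with 5 libraries of each and no treatment named in the labels. All 10 libraries come from this 1 line. Since no label names separate cultures, the variation that p-values are based on is that among these libraries and can be technical. The comparison addresses how expression differs between the sorted subpopulations.

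Histones package DNA: H2A, H2B, H3 and H4 form the core of the nucleosome, and H1 binds the linker DNA between nucleosomes. The cluster genes are known for being transcribed mainly while DNA is replicated, and most of their mRNAs end in a conserved stem-loop in place of a poly(A) tail. Some of them can also be read through to a downstream poly(A) signal, and such polyadenylated transcripts have been described in differentiated and resting cells. A library made from polyadenylated RNA therefore samples the second kind of transcript, and histone mRNA without a tail largely escapes it.

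The stem-loop is shown because it is what a histone transcript has at its end in place of a tail, and where it lies shows how far an annotated transcript runs on. The GENCODE v29 transcripts were searched for the histone stem-loop, a hairpin whose arms open with GG and close with CC and pair at every base, G with T included. It was found in 33 of the 73 genes, in 6 versions. The capitals mark the arms of the stem and the lower case letters the loop.
Stem-loop of 17 genes, HIST2H2BE, HIST3H2A and HIST1H2AC among them: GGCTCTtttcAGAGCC
Stem-loop of 5 H4 genes, HIST1H4E, HIST1H4H and HIST4H4 among them: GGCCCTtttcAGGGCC
Stem-loop of 5 genes, HIST1H2BC and HIST1H2BD among them: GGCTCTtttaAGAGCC
Stem-loop of HIST1H4I and 2 further H4 genes: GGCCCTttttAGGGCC
Stem-loop of HIST1H2AG and HIST2H2BC: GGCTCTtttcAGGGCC
Stem-loop of HIST1H3E: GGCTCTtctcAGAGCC
In HIST2H2BE, HIST1H2AC and HIST3H2A, in this order, an annotated transcript continued for 1729, 1128 and 390 bases past the stem-loop. Of the 73 genes, 24 had an annotated transcript with at least 100 bases beyond it. Transcripts of the other 40 genes held no match, which says only that these letters are not in the annotated sequence.

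Gene totals ran from 23228686 to 29539100 reads per library, so 1 CPM (the count scaled to a common library size and expressed per 1000000 reads) stands for 23.2 to 29.5 counts. ROBO1 averaged 429 ± 26.6 CPM in ROBO1pos and 7.25 ± 1.47 CPM in ROBO1neg (SD, n = 5 each), as the labels have it. Markers of colon epithelium summed to 5310 to 6470 CPM in ROBO1pos and 7180 to 9520 CPM in ROBO1neg, with KRT20 at 0. KRT8 and KRT18 made up most of this sum and were lower in ROBO1pos, but 3 of the 7 tested markers were called higher there, VIL1 with 503 CPM in ROBO1pos and 27.6 CPM in ROBO1neg, EPCAM with 680 CPM in ROBO1pos and 302 CPM in ROBO1neg, and CDX1 at under 1 CPM. Another 3 were called lower and CDX2 was not called. Fibroblast markers summed to 5.95 to 10.9 CPM against 13.9 to 22.4 CPM, endothelial markers to 0.465 to 0.78 CPM against 2.34 to 4.25 CPM, and blood markers to 2.01 to 2.99 CPM against 1.44 to 2.15 CPM, in each case ROBO1pos against ROBO1neg. Single markers went both ways here too: of the fibroblast markers, COL1A2 (1.97 CPM in ROBO1pos and 0.353 CPM in ROBO1neg) was called higher in ROBO1pos, COL1A1 and PDGFRB were called lower, and DCN was at 0 in ROBO1neg. The endothelial sum was mostly VWF, while CDH5 had 27 counts in ROBO1pos and 6 in ROBO1neg. The part of these cell types' markers in the results was not tested. Among the 6 histone genes of at least 5 CPM, ROBO1pos library 2 lay above its group's mean for 6 of 6, and so did ROBO1neg libraries 2 and 5. The median excess was 0.25, 0.18 and 0.21 on the log2 scale. Given with and without ROBO1neg libraries 2 and 5 are the sums over all 73 genes and over H1 genes. The same holds for HIST1H1C, HIST2H2BE, HIST1H2BK and HIST1H2AG. Other results, the H2B sum among them, are not given with both libraries left out.

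Histone cluster genes held few of the reads: 0.0124% of the reads on genes in ROBO1pos and 0.023% in ROBO1neg. Summed over all 73, the level was 121, 141, 118, 115 and 117 CPM in the ROBO1pos libraries, against 199, 268, 213, 211 and 266 CPM in the ROBO1neg libraries. Each ROBO1neg library was above each ROBO1pos library, and the means of 122 ± 10.6 CPM in ROBO1pos and 231 ± 32.9 CPM in ROBO1neg (SD, n = 5 each) gave a ratio of 1.89 in favour of ROBO1neg. On the log2 scale the ratio was −0.92 with all libraries. Without ROBO1neg libraries 2 and 5 it was −0.76, and without these and ROBO1pos library 2 it was −0.82. In bulk RNA, fewer cells that express a gene and less of its RNA per cell cannot be told apart.

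The types did not share this difference, as the plot of sums by type shows. H2B genes made up the most reads, with 63.6 ± 7.5 CPM in ROBO1pos and 142 ± 17.7 CPM in ROBO1neg. H1 summed to 12.9 ± 1.22 CPM in ROBO1pos and 43.7 ± 13.1 CPM in ROBO1neg, nearly all of it from HIST1H1C. For H2B, H1 and H4 each ROBO1neg library was above each ROBO1pos library, H4 with 4.40 ± 0.745 CPM in ROBO1pos and 5.67 ± 0.317 CPM in ROBO1neg. H2A reads were about equal, with 36.5 ± 2.17 CPM in ROBO1pos and 34.9 ± 2.96 CPM in ROBO1neg, and so were H3 reads, with 5.05 ± 0.875 CPM in ROBO1pos and 4.90 ± 0.301 CPM in ROBO1neg. In both of these types the libraries of the groups overlapped. The sums do not cover the types equally. HIST2H2AA3, HIST2H2AA4, HIST2H3A, HIST2H3C, HIST2H4A and HIST2H4B were at 0, and over 95% of their 50-base stretches also occur in another gene. No H2B or H1 gene was of this kind, and what such reads would add was not tested. The H2A sum rested on 1 gene, HIST3H2A, which held 55.4% of it in ROBO1pos and 32.5% in ROBO1neg. Its log2 ratio was 0.07 with that gene and −0.53 without it.

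**Figure D1:**
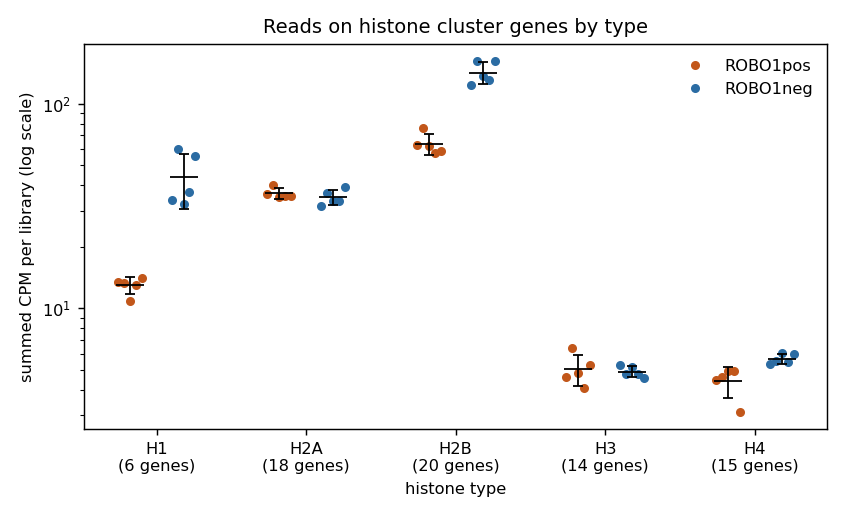
Summed CPM of the histone cluster genes of each type on a log axis, 1 point per library, with ROBO1pos in orange to the left of ROBO1neg in blue. Horizontal bars are the group means and error bars the SD of 5 libraries. H1, H2B and H4 are higher in every ROBO1neg library, while the H2A and H3 points overlap.

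All 73 genes are accounted for as follows. In every library 11 were listed at 0. For 6 of these (HIST2H2AA3, HIST2H2AA4, HIST2H3A, HIST2H3C, HIST2H4A and HIST2H4B) over 95% of the 50-base stretches of their transcripts also occur in another gene. Reads listed as aligned to several places were in none of the gene counts, and whether they set these zeros was not tested. HIST1H4K, with 100% of its stretches shared, was counted, with 44 reads in ROBO1pos and 48 in ROBO1neg. The other 5 were HIST1H2AA, HIST1H2BA, HIST1H2APS1, HIST1H4F and HIST3H3. A further 34 had between 1 and 93 counts over all libraries and did not pass the filter on low counts, with 516 counts in ROBO1pos and 603 in ROBO1neg between them. The remaining 28 were tested together with all other genes, 14932 in all.

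Of the 28 tested genes, 4 rose in ROBO1pos, 14 fell, and 10 did not pass the threshold (edgeR quasi-likelihood test, Benjamini-Hochberg adjusted p under 0.05). Changes on the log2 scale are given ± SE and CPM ± SD over 5 libraries throughout. Differences between these groups were widespread: over all genes tested 41.6% were called higher in ROBO1pos and 40.4% higher in ROBO1neg, 82.0% in all. Among the tested histone genes the shares were 14.3% higher in ROBO1pos and 64.3% called in all. The 14 of 28 higher in ROBO1neg were thus not far above the background, and the share higher in ROBO1pos was below it. Their median log2 fold change, ROBO1pos minus ROBO1neg, was −0.54, beside 0.019 for all genes. Without overlap between groups were 2 of the 28 that were higher in ROBO1pos, against 36.1% of all genes, and 11 that were higher in ROBO1neg, against 35.7% of all genes, which is 46.4% of the 28 in all, against 71.9%. Past 1.5-fold by edgeR's test against that fold, 2 rose in ROBO1pos (19.7% of all genes did) and 9 fell (22.1% of all genes). Calls were rarer at low counts, where many of the tested histone genes lay. Under 1 CPM, 7 of 14 tested histone genes were called, and 6 of the 14 were higher in ROBO1neg. Of all genes in that range, 70.5% were called and 30.9% were higher in ROBO1neg. Between 1 and 10 CPM, 5 of 8 were called and 3 of the 8 were higher in ROBO1neg, against 80.7% of all genes called and 40.1% of all genes higher in ROBO1neg. At 10 CPM or more, 6 of 6 were called and 5 of the 6 were higher in ROBO1neg, against 83.8% of all genes called and 41.6% of all genes higher in ROBO1neg. Since a gene had to pass a filter that its higher group alone can satisfy, these counts describe the genes tested and not all 73.

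**Figure D2:**
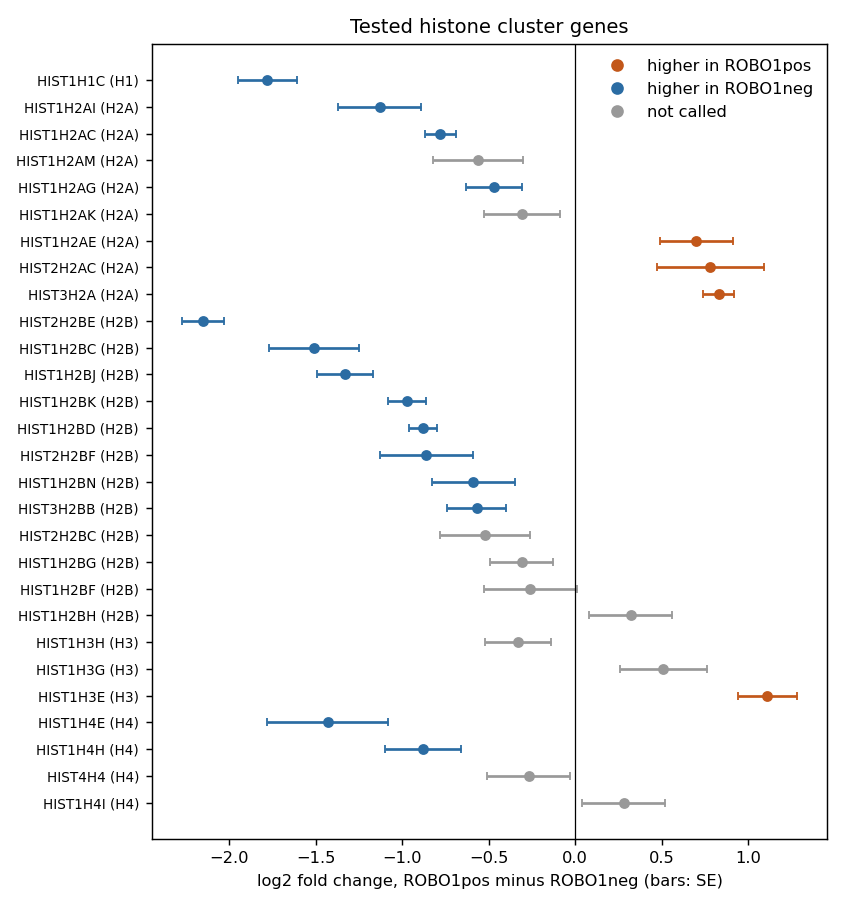
Log2 fold change, ROBO1pos minus ROBO1neg, of the 28 tested histone cluster genes, ordered by type. Points are edgeR estimates and bars their SE. Orange points were called higher in ROBO1pos, blue points higher in ROBO1neg and grey points were not called. No H2B or H4 gene is orange.

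The H1 reads came from HIST1H1C, a somatic linker histone gene (chromosome 6, 26055740 to 26056470, minus strand). HIST1H1C was at 13.1, 12.9, 10.6, 12.6 and 13.8 CPM in ROBO1pos, against 33.1, 60.0, 31.9, 36.5 and 55.0 CPM in ROBO1neg. The lowest ROBO1neg library was over any ROBO1pos library, and ROBO1neg libraries 2 and 5 stood above the other ROBO1neg libraries. The log2 fold change was −1.78 ± 0.17 (SE; edgeR quasi-likelihood test, adjusted p = 2.8e-07), and without ROBO1neg libraries 2 and 5 it was −1.43, still called. The other H1 genes were near 0: HIST1H1E averaged 0.212 ± 0.0608 CPM in ROBO1pos and 0.190 ± 0.0766 CPM in ROBO1neg, and HIST1H1B, HIST1H1T, HIST1H1D and HIST1H1A had 26, 10, 8 and 3 counts over all 10 libraries.

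HIST2H2BE, an H2B gene of the chromosome 1 cluster (149884459 to 149886682, minus strand), showed the largest fold change of the 28. HIST2H2BE was at 8.55, 11.8, 7.98, 7.59 and 7.84 CPM in ROBO1pos, against 34.4, 45.0, 38.8, 35.5 and 40.7 CPM in ROBO1neg. The groups lay far apart, and ROBO1pos library 2 was the highest of its group. It fell by 2.15 ± 0.12 on the log2 scale (SE; adjusted p = 5.4e-10), a 4.43-fold difference. Leaving out ROBO1neg libraries 2 and 5 gave −2.05, and leaving out ROBO1pos library 2 as well gave −2.19.

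HIST1H2BK had the most reads of all (chromosome 6, 27138293 to 27146858, minus strand). HIST1H2BK was at 33.7, 40.2, 33.7, 31.7 and 30.7 CPM in ROBO1pos, against 54.4, 77.9, 60.5, 59.6 and 80.0 CPM in ROBO1neg. Every ROBO1neg library was higher, and the fold change was −0.97 ± 0.11 (SE, log2; adjusted p = 1.3e-06), or −0.78 without ROBO1neg libraries 2 and 5. Of its 50-base stretches 74.1% also occur elsewhere, mostly in H2BFS, and its locus overlaps HIST1H4I, so its reads and their assignment are uncertain.

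HIST1H2BD, another H2B gene of chromosome 6 (26158121 to 26171349, plus strand), was at 11.9, 14.7, 12.4, 11.2 and 11.7 CPM in ROBO1pos, against 21.7, 23.8, 22.0, 21.9 and 25 CPM in ROBO1neg. The groups did not overlap, and it fell by 0.88 ± 0.08 on the log2 scale (SE; adjusted p = 1.2e-07). HIST1H2BJ (27132316 to 27132795, minus strand) averaged 1.65 ± 0.294 CPM in ROBO1pos and 4.17 ± 0.754 CPM in ROBO1neg and fell by 1.33 ± 0.16. HIST1H2BC averaged 0.525 ± 0.236 CPM in ROBO1pos and 1.52 ± 0.207 CPM in ROBO1neg and fell by 1.51 ± 0.26. Neither overlapped between the groups. HIST2H2BF (−0.86), HIST3H2BB (−0.57) and HIST1H2BN (−0.59) fell too, so 8 of the 12 tested H2B genes fell and 0 rose, beside the 40.4% and 41.6% of all genes called lower and higher in ROBO1pos. The call of HIST1H2BN, at an adjusted p of 0.034, was lost when any of ROBO1pos libraries 3, 4 and 5 or ROBO1neg libraries 1, 2, 3 and 5 was left out, with adjusted p up to 0.079, and DESeq2 gave an adjusted p of 0.066. Reads of HIST2H2BF are uncertain, since 25.8% of its 50-base stretches are shared, mostly with HIST2H2BA, and its locus overlaps FCGR1A. The H2B genes that were not called were HIST1H2BG (−0.31), HIST2H2BC (−0.52), HIST1H2BF (−0.26) and HIST1H2BH (0.32).

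**Figure D3:**
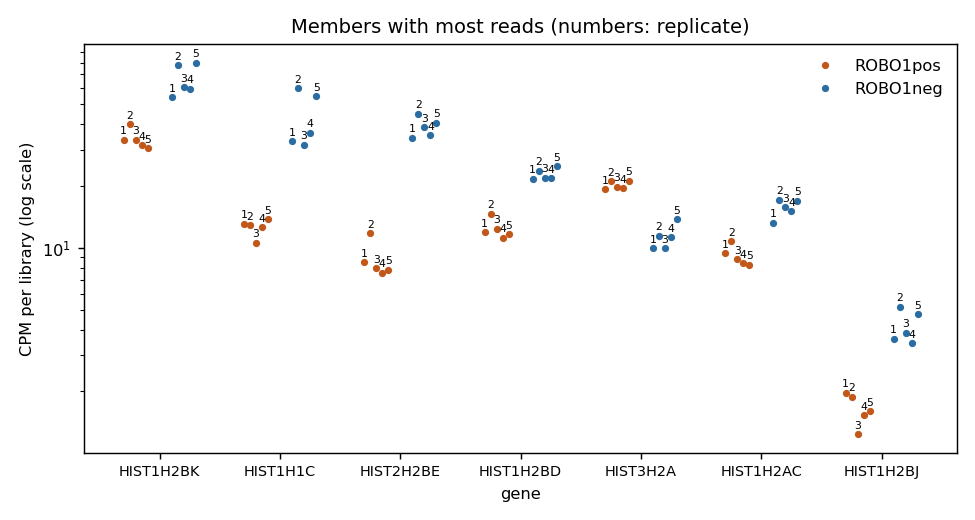
CPM on a log axis for the 7 histone cluster genes with the most reads, 1 point per library with its replicate number, ROBO1pos in orange to the left of ROBO1neg in blue. HIST3H2A is higher in every ROBO1pos library and the other 6 genes in every ROBO1neg library.

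H2A genes moved in both directions. HIST3H2A (chromosome 1, 228457364 to 228457873, minus strand) was at 19.3, 21.1, 19.9, 19.5 and 21.3 CPM in ROBO1pos, against 10.0, 11.5, 9.98, 11.3 and 13.8 CPM in ROBO1neg. Each ROBO1pos library was above each ROBO1neg library, and it rose by 0.83 ± 0.09 on the log2 scale (SE; adjusted p = 5.6e-07). Genes around HIST3H2A were higher in ROBO1pos as well: taking the 20 nearest tested non-histone genes to either side, their median log2 fold change was 0.66, and with that median removed HIST3H2A was at 0.17 and was not called (adjusted p = 0.08). HIST1H2AC, by contrast (chromosome 6, 26124172 to 26124690, plus strand), was at 9.40, 10.8, 8.79, 8.44 and 8.30 CPM in ROBO1pos, against 13.3, 17.2, 15.8, 15.1 and 17.0 CPM in ROBO1neg. Its groups did not overlap, and it fell by 0.78 ± 0.09 (SE; adjusted p = 2.9e-06).

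Among lower H2A genes, HIST1H2AE averaged 2.07 ± 0.520 CPM in ROBO1pos and 1.29 ± 0.242 CPM in ROBO1neg and rose by 0.70 ± 0.21, with overlapping libraries. With the median of its neighbours removed it was at 0.41 and not called (adjusted p = 0.084). HIST2H2AC averaged 0.596 ± 0.214 CPM in ROBO1pos and 0.349 ± 0.105 CPM in ROBO1neg and rose by 0.78 ± 0.31, again with overlap. That call, at an adjusted p of 0.03, was lost when any of ROBO1pos libraries 2 and 3 or ROBO1neg libraries 1, 3 and 4 was left out, with adjusted p from 0.053 to 0.087, and DESeq2 gave an adjusted p of 0.074. Of the 50-base stretches of HIST2H2AC, 30.5% are shared, mostly with HIST2H2AA4, so its reads are uncertain. HIST1H2AI fell by 1.13 ± 0.24, but 62.3% of its 50-base stretches are shared, mostly with HIST1H2AJ. HIST1H2AG fell by 0.47 ± 0.16, and without ROBO1neg libraries 2 and 5 it was at −0.37 and not called (adjusted p = 0.092). HIST1H2AK (−0.31) and HIST1H2AM (−0.56) were not called.

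H3 and H4 genes had few reads. HIST1H3E (chromosome 6, 26224178 to 26227473, plus strand) was at 2.05, 1.78, 1.63, 1.53 and 1.72 CPM in ROBO1pos, against 0.977, 0.818, 0.911, 0.750 and 0.613 CPM in ROBO1neg. The groups did not overlap, and HIST1H3E rose by 1.11 ± 0.17 (SE, log2; adjusted p = 2.8e-05), the largest rise among the 28 tested. HIST1H3G (0.51) and HIST1H3H (−0.33) were not called, and HIST1H3J, which was not tested, averaged 0.361 ± 0.110 CPM in ROBO1pos and 0.373 ± 0.156 CPM in ROBO1neg. HIST1H3C had 0 counts over the 5 ROBO1pos libraries and 23 over the 5 ROBO1neg libraries, which is at least 7.61-fold higher in ROBO1neg against a floor of 3 counts over the group. This floor covers counting error only. Of the H4 genes, HIST1H4E averaged 0.364 ± 0.162 CPM in ROBO1pos and 0.995 ± 0.367 CPM in ROBO1neg and fell by 1.43 ± 0.35. HIST1H4H averaged 0.701 ± 0.203 CPM in ROBO1pos and 1.29 ± 0.200 CPM in ROBO1neg and fell by 0.88 ± 0.22. HIST4H4 (−0.27) and HIST1H4I (0.28) were not called.

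Scaled by the exon length of GENCODE v29, which may not be the annotation behind the counts, the order of levels changed. HIST1H2BK stood at 89.2 CPM per kb in ROBO1pos and 175 CPM per kb in ROBO1neg, on an annotated length of only 381 bases. HIST1H1C stood at 19.6 and 67.4 CPM per kb, HIST1H2BD at 14.2 and 26.3, HIST3H2A at 22.6 and 12.6, HIST1H2AC at 5.49 and 9.41 and HIST2H2BE at 3.99 and 17.7, each with ROBO1pos before ROBO1neg. HIST3H2A was thus the gene with the second highest level per kb in ROBO1pos and was below HIST1H1C, HIST1H2BD and HIST2H2BE in ROBO1neg.

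Since the libraries hold polyadenylated RNA, the genes were also grouped by whether polyadenylated transcripts have been described for them: HIST1H1C, HIST1H2AC, HIST1H2BC, HIST1H2BD, HIST1H2BJ, HIST1H2BK and HIST2H2BE. The list is from background knowledge and was written with earlier results of these data known, so its direction is no independent evidence. All 7 fell, with a median log2 fold change of −1.33. They summed to 79.3, 93.1, 75.3, 73.4 and 74.2 CPM in ROBO1pos, against 162, 231, 174, 173 and 224 CPM in ROBO1neg. Each ROBO1neg library was well above each ROBO1pos library, and these genes made up 64.6% of all histone cluster CPM in ROBO1pos and 83.4% in ROBO1neg. The other 66 genes summed to 43.4 ± 2.52 CPM in ROBO1pos and 38.5 ± 1.94 CPM in ROBO1neg, with libraries that overlapped by a narrow margin. Of their 21 tested genes 4 rose and 7 fell, with a median of −0.31. Over all genes tested, 41.6% were called higher and 40.4% lower in ROBO1pos, which stands beside each count in this paragraph. Without HIST3H2A the other genes summed to 23.2 ± 2.08 CPM in ROBO1pos and 27.2 ± 1.20 CPM in ROBO1neg, again with overlap. A split by annotation did not use that list, and the 7 listed genes lay on both sides of it. Of 19 tested genes with at least 100 annotated bases past the stem-loop, 2 rose and 9 fell. Of the 9 other tested genes, 2 rose and 5 fell. The share that fell was no higher among the genes with annotated extensions. This split cannot tell which genes make extended transcripts. HIST1H1C, HIST1H2BJ and HIST1H2BK were placed among the 9 because their annotated sequence holds no stem-loop. HIST1H2BD was placed there with 39 annotated bases past it.

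H2A and H2B genes often lie head to head, with a shared stretch of DNA between their starts from which both are transcribed in opposite directions. Pairs were taken between histone genes adjacent in order of position. HIST1H2BK and HIST1H2AH also lie head to head, but were left out because HIST1H4I starts within the HIST1H2BK locus. HIST1H2AH was not tested. The rule gave 12 pairs, with starts 194 to 288 bases apart, and in 6 both genes were tested. In 2 of these both genes fell: HIST1H2AC (−0.78) with HIST1H2BC (−1.51), and HIST1H2AG (−0.47) with HIST1H2BJ (−1.33). In another 2 they were called in opposite directions: HIST2H2AC (0.78, the uncertain call above) with HIST2H2BE (−2.15), and HIST3H2A (0.83) with HIST3H2BB (−0.57). HIST3H2BB averaged 0.757 ± 0.0944 CPM in ROBO1pos and 1.13 ± 0.119 CPM in ROBO1neg, without overlap (adjusted p = 0.0059). In the last 2 pairs 1 gene was called, HIST1H2AE (0.70) beside HIST1H2BG (−0.31) and HIST1H2BN (−0.59) beside HIST1H2AK (−0.31). Over all genes tested, 41.6% were called higher and 40.4% lower in ROBO1pos. Whether these pairs differed from pairs of unrelated genes was not tested. In each of the 6 pairs the H2A gene had the higher log2 fold change, as the plot of pairs shows.

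**Figure D4:**
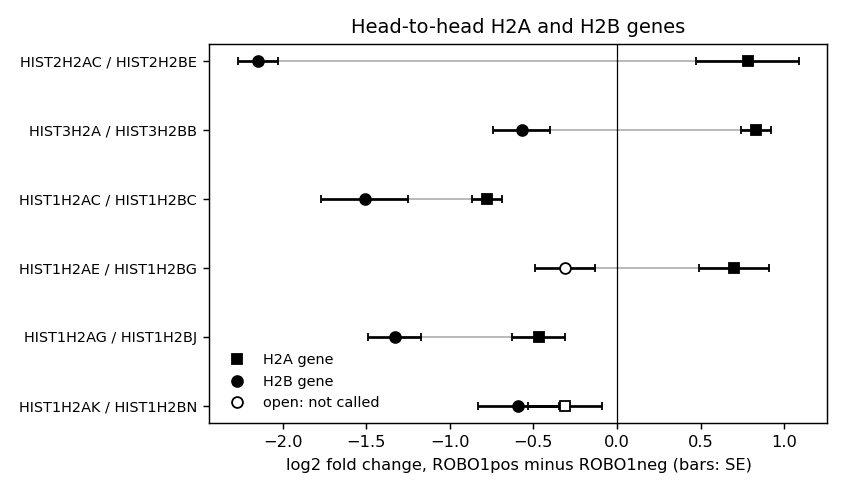
Log2 fold change, ROBO1pos minus ROBO1neg, of the 6 head-to-head pairs in which both genes were tested. Squares are H2A genes, circles H2B genes, open symbols genes that were not called, and bars the SE. In each pair the square lies to the right of the circle.

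The DNA between the starts is shown for both pairs called in opposite directions and for 1 pair in which both genes fell. Each sequence holds the 250 bases before the start of the first named gene, from RefSeq for GRCh38.p14, read 5′ to 3′ towards it. Its left end runs a few bases past the start of the partner gene. Capitals mark motifs known from histone promoters, on either strand: the CCAAT box, the TATA box core TATAA and the octamer motif ATTTGCAT. TTATAA in capitals is TATAA read on both strands, where the overlapping matches count separately.
HIST2H2BE, partner HIST2H2AC, chr1:149886683-149886932, minus strand: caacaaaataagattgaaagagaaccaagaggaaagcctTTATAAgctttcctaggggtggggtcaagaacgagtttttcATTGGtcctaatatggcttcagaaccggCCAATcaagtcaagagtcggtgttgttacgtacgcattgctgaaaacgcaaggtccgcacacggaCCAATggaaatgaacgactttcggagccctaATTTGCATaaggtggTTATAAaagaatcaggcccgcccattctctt
HIST3H2A, partner HIST3H2BB, chr1:228457874-228458123, minus strand: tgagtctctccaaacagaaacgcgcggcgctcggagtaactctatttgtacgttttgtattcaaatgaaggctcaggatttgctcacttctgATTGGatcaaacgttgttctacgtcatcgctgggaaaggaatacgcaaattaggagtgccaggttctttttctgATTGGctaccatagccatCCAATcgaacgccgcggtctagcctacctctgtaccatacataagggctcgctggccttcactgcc
HIST1H2BJ, partner HIST1H2AG, chr6:27132796-27133045, minus strand: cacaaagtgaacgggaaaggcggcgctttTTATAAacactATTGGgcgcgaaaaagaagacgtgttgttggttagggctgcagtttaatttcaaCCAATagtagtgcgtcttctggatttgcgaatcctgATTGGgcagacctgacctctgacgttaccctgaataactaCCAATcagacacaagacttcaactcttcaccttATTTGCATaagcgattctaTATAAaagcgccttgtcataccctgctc
The HIST2H2BE sequence held CCAAT at 3 places, 4 matches to TATAA and 1 to ATTTGCAT, and the HIST1H2BJ sequence 4, 3 and 1. The HIST3H2A sequence held CCAAT at 3 places and neither of the other motifs. Promoter sequences were given for 65 of the 73 genes. CCAAT was present in 55 of them (84.6%), against 33.0% of all 27305 promoters in the table, TATAA in 60 (92.3%), against 19.6%, and ATTTGCAT in 26 (40.0%), against 1.66%. These sequences are not all separate: windows of head-to-head genes overlap, and HIST1H2AD and HIST1H3D have the same one. The same match can thus count for more than 1 gene. A match describes the letters and does not show that a factor binds.

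Genes placed among the histone genes differed too. Between the first and last histone gene of chromosome 6, 20 other genes were tested, of which 13 rose and 5 fell, with a median log2 fold change of 0.56, beside −0.56 for the 21 tested histone genes of that cluster. Over all genes tested, 41.6% rose and 40.4% fell, and these shares also stand beside the counts of neighbours that follow. BTN3A2, which encodes a butyrophilin, was at 50.7 ± 1.38 CPM in ROBO1pos and 10.5 ± 2.17 CPM in ROBO1neg and rose by 2.27 ± 0.11. HMGN4, a nucleosome-binding protein gene, was not called, with 119 ± 3.15 CPM in ROBO1pos and 116 ± 3.09 CPM in ROBO1neg. Most of these genes lie between blocks of histone genes. The only tested genes inside the first block, which holds 35 histone genes, were TRIM38, a ubiquitin ligase gene, and HFE, which encodes a regulator of iron uptake. TRIM38 fell by 6.15 ± 0.14, with 0.359 ± 0.134 CPM in ROBO1pos and 25.9 ± 1.39 CPM in ROBO1neg. HFE fell by 4.16 ± 0.14, with 0.478 ± 0.116 CPM in ROBO1pos and 8.64 ± 0.501 CPM in ROBO1neg. The tested histone genes of the 3 blocks had medians of −0.55, −0.72 and −0.56, in order along the chromosome. Within 1000000 bases on each side of the HIST3 genes, 12 of 19 other tested genes rose and 4 fell, with a median of 0.47. Around HIST4H4, 7 of 9 rose and 2 fell, with a median of 0.48. With the median of the nearest genes removed, 2 of the tested histone genes were called higher in ROBO1pos and 19 higher in ROBO1neg. Over all 14932 tested genes that setting called 5974 higher in ROBO1pos and 6049 higher in ROBO1neg.

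**Figure D5:**
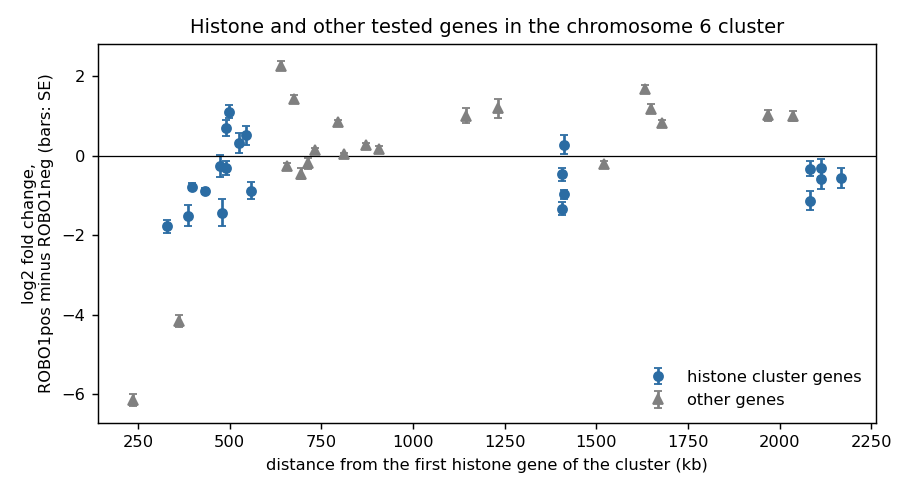
Log2 fold change, ROBO1pos minus ROBO1neg, against distance in kb from the first histone gene of the chromosome 6 cluster. Blue circles are the 21 tested histone cluster genes, grey triangles the 20 other tested genes, and bars the SE. Most triangles lie above 0 and most circles below it, and the triangles far below 0 are TRIM38 and HFE.

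Most histone variant genes lie outside the clusters and make polyadenylated mRNA through the whole cell cycle. Of 20 listed variant genes 12 were tested, of which 5 rose and 6 fell, with a median of −0.05, both shares near the 41.6% and 40.4% of all genes called in these directions. H1F0, the linker variant of resting and differentiated cells, fell by 0.86 ± 0.05, with 338 ± 23.9 CPM in ROBO1pos and 611 ± 35.9 CPM in ROBO1neg. H3F3B, which encodes H3.3, fell by 0.60 ± 0.04, and so did H3F3C by 0.69 ± 0.13 and H2AFX, the variant phosphorylated at DNA breaks, by 0.53 ± 0.07. The macroH2A genes went the other way: H2AFY rose by 0.80 ± 0.05, with 522 ± 7.36 CPM in ROBO1pos and 300 ± 20.8 CPM in ROBO1neg, and H2AFY2 rose by 0.86 ± 0.04. HILS1, another gene of this list, had 112 counts over the ROBO1pos libraries and 2 over the ROBO1neg libraries and was called higher in ROBO1pos (adjusted p = 1.6e-07). H3F3A was listed at 0 in all 10 libraries. Reads aligned to several places were in no gene count, and whether they set this zero was not tested.

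Genes for making and ending histone mRNA were split in direction. Of 23 tested, 8 rose, 6 fell and 9 were not called, with a median of −0.01. Calls were thus fewer than the 82.0% over all genes. SLBP, which binds the stem-loop, fell by 0.60 ± 0.04, with 62.0 ± 3.03 CPM in ROBO1pos and 94.2 ± 1.37 CPM in ROBO1neg. LSM11, a subunit of the U7 particle that directs cleavage, rose by 0.88 ± 0.07, and SYMPK and CPSF3, the scaffold and the nuclease of the cleavage complex, rose by 0.59 ± 0.04 and 0.54 ± 0.04. NPAT, which drives histone transcription in S phase, was not called, with 57.4 ± 4.18 CPM in ROBO1pos and 60.2 ± 3.18 CPM in ROBO1neg. CDK2 fell by 1.14 ± 0.04 and CCNE2, one of its cyclins, by 1.73 ± 0.08. NCBP2, the small subunit of the cap-binding complex, fell by 0.72 ± 0.04, but with the median of its neighbours removed it was at 0.19, in the opposite direction.

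Of 6 genes for the decay of histone mRNA, 2 rose and 3 fell: UPF1, a helicase, by 0.87 ± 0.04 and EXOSC10, an exosome nuclease, by 0.85 ± 0.03 among those that rose, and ZCCHC6, which adds uridines to mRNA ends, by 0.94 ± 0.06, MIF4GD, an SLBP partner, by 0.92 ± 0.07 and ERI1, which trims the stem-loop, by 0.28 ± 0.06 among those that fell. Of 26 histone chaperone and import genes 15 rose and 6 fell, with a median of 0.18, beside 41.6% and 40.4% of all genes. NAP1L1, an H2A and H2B chaperone, rose by 1.66 ± 0.04, with 1820 ± 33.4 CPM in ROBO1pos and 576 ± 28.1 CPM in ROBO1neg. IPO4, a histone importer, rose by 0.74 ± 0.06 and HIRA, which deposits H3.3, by 0.52 ± 0.04. DNAJC9 and CHAF1B, which handle new H3 and H4, fell by 0.27 ± 0.04 and 0.36 ± 0.07. SUPT6H, which acts on nucleosomes during elongation, fell by 0.31 ± 0.04, but stood at 0.16 with the median of its neighbours removed.

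Histone cluster genes are usually transcribed together with the genes of DNA replication. Of 37 tested S phase genes 11 rose, 18 fell and 8 were not called, with a median of −0.13. TK1 and RRM2, both needed to make DNA precursors, fell by 1.79 ± 0.06 and 1.57 ± 0.07, with 47.2 ± 4.06 CPM in ROBO1pos and 163 ± 11.4 CPM in ROBO1neg for TK1, and 105 ± 9.98 CPM in ROBO1pos and 313 ± 26.2 CPM in ROBO1neg for RRM2. CDC6, which loads the replicative helicase, fell by 0.93 ± 0.05. POLE and POLD1, the catalytic subunits of replicative polymerases, rose by 0.54 ± 0.05 and 0.53 ± 0.05, and GINS2, a helicase component, rose by 0.36 ± 0.05. The share of S phase genes in either direction is to be read against the 41.6% and 40.4% of all genes, and whether the fractions differed in their share of cycling cells was not tested.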

How the data were processed

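Sorted cells were frozen in TRIzol until every replicate was in hand, and a stranded mRNA kit was used for the libraries, per the labels' protocols. The values are the authors' deposited gene-level read counts, without normalisation. The submitters' processing notes name the build GRCh38 and the tools bcl2fastq, FastQC, STAR 2.6.0c, SAMtools 1.9 and DESeq2 1.24.0. The tool that counted the reads, its strand setting and its annotation: not given in the sources used here. Reads from overlapping and antisense genes can thus be mixed. Entries without a gene name did not enter library sizes or tests: reads with no feature (means of 15.8% in ROBO1pos and 14.6% in ROBO1neg), aligned to several places (24.6% and 21.2%) or ambiguous (0.86% and 0.833%).

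Counts were fitted with edgeR 4.0.16 in R 4.3.3 (filterByExpr, TMM, quasi-likelihood with group as the only term), and Benjamini-Hochberg adjustment ran over all tested genes with a threshold of 0.05. Every adjusted p and SE is from this fit unless another setting is named, and CPM values are TMM-scaled. Sums over genes and lists are described and not tested. Within groups, counts of no pair of libraries agreed within sampling noise (chi-square per degree of freedom of 3.55 to 22). All 73 genes were matched to the RefSeq table by symbol or older name and position.

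The genes and lists were chosen with earlier results of these data known. Named with values are the 4 highest genes of each type, the 4 called genes at each end of the fold changes, tested genes outside chromosome 6, tested H2A and H2B pairs, variant and mRNA processing genes called at a log2 fold change of at least 0.5 either way, and the 3 other list genes with the smallest adjusted p per direction. NPAT, H3F3A, HIST1H3C, the other called or uncalled histone genes and the neighbouring genes named were chosen after their values were seen. Alternatives were other scalings, filters of 1 count or 5 CPM in 5 libraries, DESeq2 1.42.0, limma-voom (limma 3.58.1) and the replicate number as a block. Further ones were a test against 1.5-fold, removal of the median of the 20 nearest genes on each side, and each library left out. Sums were also taken without the highest gene, or without HIST1H2APS1 and genes with over 95% of their 50-base stretches shared. Of the genes in that last removal only HIST1H4K had counts, so only the H4 sum and the sum over all types could change. HIST2H2BA and HIST2H2BC, in RefSeq H2BP1 and H2BC20P, stayed in all of these sums. Leaving out ROBO1neg libraries 2 and 5, alone or with ROBO1pos library 2, was added after the data were seen.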

Additional observations from a re-analysis of the deposited data

Results flagged for a closer look

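In 8 of 68 groups of 5 libraries checked, 1 library stood apart from the other 4 by more than Dixon's limit, and chance alone marks about 1 in 20 groups. The groups are not independent, since the sums hold the single genes, so the count of 8 cannot be weighed against that rate. HIST2H2BE is part of the H2B sum and the sum over all 73 genes, and HIST1H4E of the H4 sum. All 8 were ROBO1pos groups. ROBO1pos library 2 was the highest for HIST2H2BE, at 11.8 CPM against 7.59 to 8.55 CPM in the other ROBO1pos libraries, and for the sums over H2A genes (40.3 against 35.1 to 36.1 CPM), H2B genes (76.4 against 57.7 to 62.7 CPM) and all 73 genes (141 against 115 to 121 CPM). ROBO1pos library 5 was the lowest for HIST1H4E, at 0.0821 CPM against 0.387 to 0.482 CPM, and for the sum over H4 genes, at 3.12 CPM against 4.45 to 4.93 CPM. ROBO1pos library 4 was the highest for HIST1H2AK, at 1.09 CPM against 0.58 to 0.698 CPM, and ROBO1pos library 3 the lowest for HIST1H2AM, at 0.271 CPM against 0.735 to 0.862 CPM.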

How the results depend on the processing

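Of the 18 called histone genes, 10 kept their call in every alternative in which they were tested, 8 lost it in at least 1 (HIST1H2AE, HIST1H2AG, HIST1H2BN, HIST1H4H, HIST2H2AC, HIST2H2BF, HIST3H2A and HIST3H2BB), and 0 reversed. Of the uncalled ones, 7 were called in at least 1. Against the 4 called higher in ROBO1pos and 14 higher in ROBO1neg, a test against 1.5-fold called 2 and 9, the filter of 5 CPM 1 and 5 (of 6 tested), and removal of the neighbours' median 2 and 19. Over all genes the 1.5-fold test called 2938 higher in ROBO1pos and 3298 higher in ROBO1neg, in place of 6214 and 6036. The filter of 5 CPM called 4967 and 4863 over all genes, and removal of the neighbours' median 5974 and 6049. The median of −0.54 became −0.41 with no filter beyond 1 count and with DESeq2 (62 histone genes each), −0.92 with the filter of 5 CPM and −1.0 with the neighbours' median removed. Without its highest gene, the log2 ratio of sums moved to −0.27 for H1 (main value −1.76), −0.53 for H2A (0.07), −1.36 for H2B (−1.16) and 0.27 for H3 (0.04). H1 was at −1.41 under both settings that left out ROBO1neg libraries 2 and 5. With each library left out in turn, 3 to 5 and 13 to 15 histone genes were called, the median ran from −0.57 to −0.44 and the ratios from −1.85 to −1.61 (H1), 0.03 to 0.11 (H2A), −1.24 to −1.11 (H2B), −0.06 to 0.11 (H3), −0.41 to −0.26 (H4) and −0.97 to −0.86 (all). With the neighbours' median removed, 12 of the 80 called genes of the other lists turned in direction, SUPT6H (0.16), NCBP2 (0.19) and 10 more (CASP8AP2, CCNA2, CENPA, CPSF2, H1FX, MCM2, NCBP1, RFC4, SET and ZNF473). The calls higher in ROBO1pos and ROBO1neg were then 4 and 7 for variants, 10 and 9 for mRNA processing, 2 and 3 for decay, 13 and 5 for chaperones and 10 and 20 for S phase. Causes were not tested. Same-numbered libraries deviated together only weakly (r from 0.062 to 0.169), though each correlated best with its own number. With the replicate number as a block, 4 and 15 histone genes were called, HIST1H2AM being the added one, and 6226 and 6086 over all genes. The 34 counted but untested genes had at most 93 counts over all libraries, which limits what can be said of each.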
